A study of Mus musculus with 6 samples.

Results

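Sprouty and Spred proteins are the inhibitors that cells switch on to hold back their own RAS-ERK signaling. The genes examined here are 8 of the 35027 genes in the expression table, picked by symbol as the Sprouty genes Spry1, Spry2 and Spry4, the Spred genes Spred1, Spred2 and Spred3, and 2 further inhibitors of the same cascade, Il17rd and Nf1. All 8 were found in the table and passed the minimum on low values. RNA was sequenced from Kate-positive cells sorted from thyroid tumors of YAP mice and BrafYAP mice, with 3 libraries per genotype of about 20000 cells each. Both genotypes carried a Cre transgene, the RIK allele for the dox-dependent transactivator and the red reporter Kate, and a tetO transgene for YAPS127A, a constitutively nuclear YAP, on a mixed background, and by the labels were given dox chow from 4 weeks of age. BrafYAP mice also expressed BrafV600E from the endogenous gene. Recombination by this Cre is meant for thyroid follicular cells. Per the labels each YAP library pooled 3 tumors and each BrafYAP library held 1 tumor, so pooling and genotype cannot be told apart. Tumors with BrafV600E alone and normal thyroid were not analysed here.

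As background, receptor tyrosine kinases load RAS with GTP, and RAS then activates the RAF, MEK and ERK kinases. Sprouty proteins act between receptor and RAF. Spred proteins bring neurofibromin, the RAS GTPase-activating protein encoded by Nf1, to the plasma membrane, where it returns RAS to its inactive form. Il17rd encodes Sef, a transmembrane inhibitor of FGF receptor and ERK signaling. Several Sprouty and Spred genes are themselves transcribed in response to ERK, which makes them feedback inhibitors, and they are commonly read as markers of ERK output. Mutant Braf signals without RAS, downstream of the step at which neurofibromin works.

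Promoter sequences are shown for 4 of these genes, because they set genes that separated the genotypes beside genes that did not. Windows of 300 bases, 250 before the start of transcription and 50 from it, were taken from RefSeq's promoter table (GRCm38.p6). Windows of 7 of the 8 genes were searched. Spry4 was not searched, so the counts of matches leave it open whether its promoter holds any of these letters. Spry2 and Spred2 were higher in all BrafYAP libraries, whereas Spry1 and Nf1 were not. Capitals mark matches to the letters CCGGAA (core of ETS factor motifs) or CATTCC (core of TEAD motifs) on either strand. Only bases before the annotated start in both RefSeq and GENCODE are printed.
Spry2, chr14:105896820-105897069, minus strand: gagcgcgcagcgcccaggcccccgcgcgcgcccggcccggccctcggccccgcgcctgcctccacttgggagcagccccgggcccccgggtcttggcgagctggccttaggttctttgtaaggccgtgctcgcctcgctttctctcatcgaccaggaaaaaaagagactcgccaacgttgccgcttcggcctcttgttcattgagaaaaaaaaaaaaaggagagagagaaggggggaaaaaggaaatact
Spred2, chr11:19924192-19924374, plus strand: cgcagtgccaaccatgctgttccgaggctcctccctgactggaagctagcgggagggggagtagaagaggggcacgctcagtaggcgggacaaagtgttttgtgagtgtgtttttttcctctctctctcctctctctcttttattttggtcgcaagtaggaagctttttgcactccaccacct
Spry1, chr3:37639697-37639946, plus strand: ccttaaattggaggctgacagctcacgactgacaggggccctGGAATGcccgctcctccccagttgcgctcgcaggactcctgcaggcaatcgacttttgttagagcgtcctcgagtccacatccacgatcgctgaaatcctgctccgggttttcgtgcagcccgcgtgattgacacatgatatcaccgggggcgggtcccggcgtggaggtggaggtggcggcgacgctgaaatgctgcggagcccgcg
Nf1, chr11:79339642-79339692, plus strand: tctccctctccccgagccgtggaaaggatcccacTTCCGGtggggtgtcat

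Over the full windows of the 7 genes, the ETS letters were found in Spry2, at a position after its start that is not printed, and in Nf1. They occur in 14.9% of the 32851 promoter windows of the table. The TEAD letters were found in Spry1 alone, against 14.7% of all windows, and the AP-1 letters TGANTCA in 0 of 7, against 7.81%. Both strands were searched, no matches overlapped, and a match describes letters and not a bound site.

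The values compared are scaled reads. The deposited TPM had been divided by the whole genomic span of each gene, introns included, and scaled reads undo that division and keep the scaling between libraries that the authors chose. They come from 26.2 to 36.9 M estimated reads per library. A scaled read is worth about 1 sequenced read. The counting error of a value is that of its reads, which carry no molecular identifiers, so that intervals from them cover counting error only. BrafYAP replicate 6 stood apart, with a Pearson's r across genes of 0.732 to 0.837 with the other libraries, where the remaining pairs reached 0.833 to 0.968. It had the highest value for 23.8% of the 16832 genes tested and the lowest for 31%, and YAP replicate 1 was about as often at an extreme, highest for 24.2% and lowest for 27.4%. Markers of several cell types were read in the Kate-sorted cells. Epithelial markers (10 of 10 detected) summed to 7760 to 24550 TPM by exonic length in YAP and 11580 to 27380 in BrafYAP, and thyroid markers (12 of 12 detected) to 201.1 to 421.3 and 136.7 to 485.7. Immune markers (16 of 16 detected), led by the macrophage gene Lyz2, summed to 12510 to 42390 in YAP and 3833 to 13600 in BrafYAP. Fibroblast markers (10 of 10 detected) summed to 137.7 to 268.4 and 154.6 to 286.7. Endothelial markers (10 of 10 detected) summed to 8.12 to 17.6 in 5 libraries and to 101.3 in BrafYAP replicate 6. In bulk RNA, fewer cells of a type and less RNA per cell cannot be told apart.

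BrafYAP cells had more RNA of part of this inhibitor set. Spry4 was 5.91-fold and Spred2 3.99-fold as abundant by group means, Spred1 and Spry2 were also higher in every BrafYAP than in every YAP library, Il17rd was higher in 2 of 3 BrafYAP libraries, and Spry1, Spred3 and Nf1 showed no separation. None passed the threshold of the test across all genes. Each gene was compared by limma on log2(scaled reads + 1), where 0 of 8 had an adjusted p-value under 0.05, against 0% of all 16832 genes tested (3404 genes, or 20.2%, had an unadjusted p-value under 0.05, and voom on the estimated reads also called 0 genes). At an unadjusted p-value under 0.05, 2 of 8 were higher in BrafYAP, against 9.68% of all genes, and 0 of 8 were lower, against 10.5%. The groups did not overlap, with BrafYAP above YAP, for 4 of 8, against 11.7% of all genes, and for 0 of 8 in the other direction, against 17.1% (28.7% in either direction). The median log2 fold change of the 8 genes was 1.09, where that of all genes tested was -0.12. All 12 immune markers tested had a lower fitted level in BrafYAP (median log2 fold change -1.81, none past the threshold), and their part in the differences of the 8 genes was not tested. Leaving out BrafYAP replicate 6, groups did not overlap, with BrafYAP above YAP, for 6 of 8 genes, against 19% of all genes with 3 libraries against 2. Leaving out any other library gave 4 of 8 in that direction, against 13.5 to 20.3% of all genes.

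**Figure D1:**
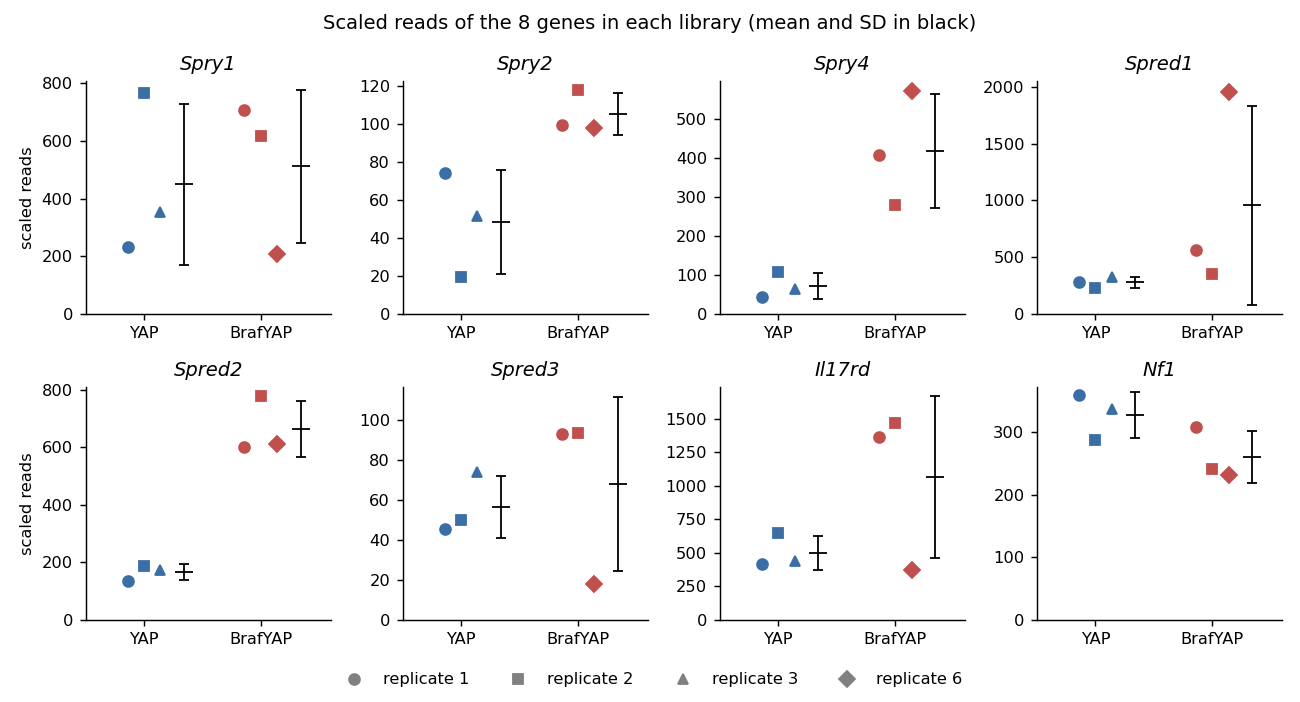
Scaled reads (y axes, linear, from 0) of the 8 genes in the 3 YAP (blue) and 3 BrafYAP (red) libraries, with the symbol giving the replicate and the black bar the mean and SD of the group. In Spry2, Spry4, Spred1 and Spred2 all red points lie above all blue ones, and the diamond of BrafYAP replicate 6 is the lowest of the 6 points in Spry1, Spred3, Il17rd and Nf1.

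Among the Sprouty genes, Spry4 separated the genotypes by the widest margin. Spry4 (chromosome 18, 38586247 to 38601415, mm10) had 41.6, 107.6 and 63.5 scaled reads in YAP replicates 1, 2 and 3, and 407.8, 278.6 and 571.1 in BrafYAP replicates 1, 2 and 6. The lowest BrafYAP library was thus well above the highest YAP library, and the group means were 70.9 ± 33.6 and 419.1 ± 146.6 (SD, n = 3). The log2 fold change was 2.59 (SE 0.47, 95% interval 1.48 to 3.70, limma adjusted p = 0.0818), and 0.992% of genes had a smaller p-value. Across the 6 fits that each left out 1 library it stayed between 2.27 and 2.94, with limma adjusted p-values of 0.0595 to 0.236.

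Spry2, which like Spry4 is induced by growth factors, was a low gene whose difference leaned on 1 library. Spry2 (chromosome 14, 105891947 to 105896819) had 74.0, 19.6 and 51.5 scaled reads in the YAP libraries and 99.7, 117.7 and 97.7 in the BrafYAP libraries. The BrafYAP libraries were close together, within 1.21-fold of each other, whereas the YAP libraries spanned 3.78-fold. The YAP replicate 2 value rests on 16 reads, for which counting error alone gives a 95% Poisson interval of 9.15 to 26.0 reads. The means were 48.4 ± 27.4 and 105.0 ± 11.0 (SD, n = 3), and the log2 fold change was 1.29 (SE 0.55, 95% interval -0.01 to 2.59, limma adjusted p = 0.250). Without YAP replicate 2 it was 0.75.

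Spry1, the third Sprouty gene, varied as widely within a genotype as between them. Spry1 (chromosome 3, 37639947 to 37644598) had 231.1, 765.6 and 352.2 scaled reads in YAP and 707.9, 618.3 and 208.7 in BrafYAP. The highest value of all belonged to a YAP library and the lowest to BrafYAP replicate 6. The means, 449.6 ± 280.2 and 511.6 ± 266.2 (SD, n = 3), lay closer together than replicates of either genotype did. The log2 fold change was 0.18 (SE 0.62, 95% interval -1.26 to 1.63, limma adjusted p = 0.887). The interval covers changes of over 2-fold in either direction, so a change of the size of that in Spred1 or Spry2 was not excluded. The sign turned negative without YAP replicate 1 (-0.20), BrafYAP replicate 1 (-0.14) or BrafYAP replicate 2 (-0.04), and without BrafYAP replicate 6 the change was 0.74.

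Among the Spred genes, Spred2 differed between genotypes with little spread within either. Spred2 (chromosome 11, 19924375 to 20024026) had 136.7, 187.1 and 175.1 scaled reads in YAP and 602.7, 777.9 and 611.8 in BrafYAP. Values within a genotype lay within 1.37-fold in YAP and 1.29-fold in BrafYAP, far less than the distance between the genotypes, and BrafYAP replicate 6 sat with the other 2 libraries. The means were 166.3 ± 26.3 and 664.1 ± 98.6 (SD, n = 3), with a log2 fold change of 1.99 (SE 0.30, 95% interval 1.28 to 2.70, limma adjusted p = 0.0665). Only 0.386% of the genes tested had a smaller p-value. Leaving out any 1 library kept the change between 1.86 and 2.08 (limma adjusted p = 0.0501 to 0.233).

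Spred1, the gene mutated in the RASopathy Legius syndrome, was higher in BrafYAP too, but most of its mean came from 1 library. Spred1 (chromosome 2, 117121374 to 117182279) had 276.5, 227.5 and 327.5 scaled reads in YAP and 557.2, 350.1 and 1958 in BrafYAP. BrafYAP replicate 6 held 4.32 times the mean of replicates 1 and 2, and replicate 2 lay just above the highest YAP library. The means were 277.2 ± 50.02 and 955.1 ± 874.7 (SD, n = 3), and the log2 fold change was 1.40 (SE 0.62, 95% interval -0.05 to 2.86, limma adjusted p = 0.260). It was 0.69 without BrafYAP replicate 6. In that library 10 of 10 endothelial, 10 of 12 thyroid and 4 of 10 fibroblast markers also had their highest level. The same held for 1 of 10 epithelial and 2 of 16 immune markers, and on scaled reads for 23.8% of all genes tested. The part of these cell types in the Spred1 value was not tested.

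Spred3, the least abundant member, was low in every library. Spred3 (chromosome 7, 29158829 to 29170411) had 45.2, 50.1 and 74.2 scaled reads in YAP and 93.1, 93.4 and 17.8 in BrafYAP. Replicates 1 and 2 of BrafYAP lay above all YAP libraries and replicate 6, with 20 reads (95% Poisson interval 12.2 to 30.9), below all of them. The log2 fold change was -0.03 (SE 0.71, 95% interval -1.70 to 1.64, limma adjusted p = 0.985), and 0.75 without BrafYAP replicate 6. Spred3 overlaps Ggn on the opposite strand, which had 7 to 151 reads, and reads can be shared between them because no strand was stated for the counting.

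Il17rd, for the FGF receptor inhibitor Sef, followed the same split within BrafYAP. Il17rd (chromosome 14, 27038941 to 27107286) had 413.2, 646.9 and 440.8 scaled reads in YAP and 1363, 1465 and 372.9 in BrafYAP. BrafYAP replicates 1 and 2 were both over 2-fold above the highest YAP library, and replicate 6 was the lowest of all 6, at 0.264 times the mean of those 2. The means were 500.3 ± 127.7 and 1067 ± 603.3 (SD, n = 3), with a log2 fold change of 0.89 (SE 0.56, 95% interval -0.43 to 2.197, limma adjusted p = 0.404). Without BrafYAP replicate 6 it was 1.53 (limma adjusted p = 0.0799), and without BrafYAP replicate 2 it was 0.54.

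Nf1, the RAS GTPase-activating protein itself, was the steadiest of the 8 genes. It was the only one with a lower mean of scaled reads in BrafYAP, and its groups overlapped. Nf1 (chromosome 11, 79339693 to 79581612) had 358.8, 287.4 and 336.8 scaled reads in YAP and 308.0, 241.0 and 230.9 in BrafYAP. The highest and lowest libraries differed by 1.55-fold, and BrafYAP replicate 1 overlapped the YAP range. The means were 327.6 ± 36.6 and 259.9 ± 41.9 (SD, n = 3), with a log2 fold change of -0.34 (SE 0.30, 95% interval -1.04 to 0.37, limma adjusted p = 0.546). The interval does not reach the log2 fold changes of Spry4 or Spred2, and all 6 fits without 1 library were negative, from -0.47 to -0.26. Evi2a and Evi2b, genes of blood cells that lie in an intron of Nf1 on the opposite strand, had 782.7 to 1612 and 245.0 to 344.1 reads in YAP and 266.0 to 423.2 and 71.2 to 142.8 in BrafYAP. Both were lower in all BrafYAP libraries, and their part in the Nf1 value was not tested.

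For Spry2, Spry4, Spred1 and Spred2, the exact permutation test of the scaled reads gave p = 0.1 (two-sided), the smallest that 3 libraries against 3 allow. It gave 0.2 for Nf1, 0.4 for Il17rd, 0.8 for Spred3 and 1 for Spry1. The labels count tumors and not mice, so p-values here measure only the spread between these libraries.

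**Figure D2:**
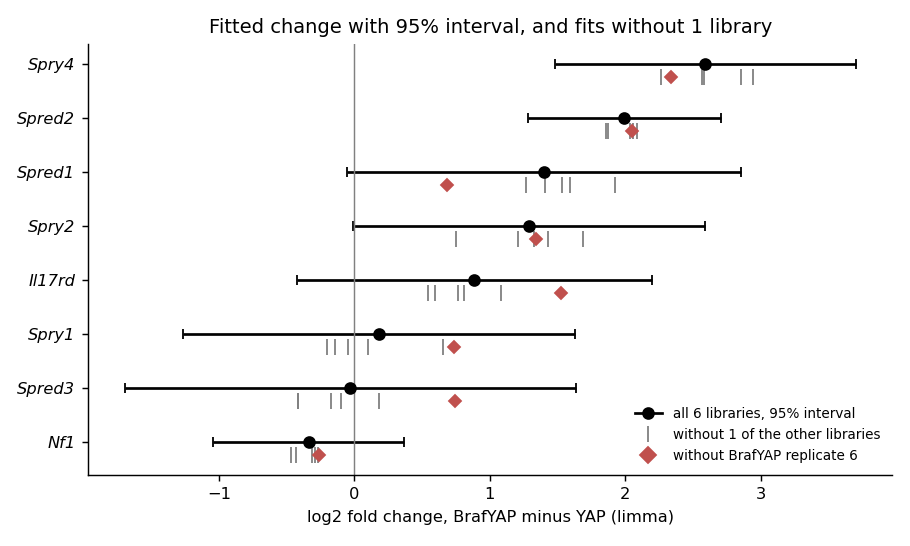
Log2 fold change of each gene (x axis, BrafYAP minus YAP, limma on log2(scaled reads + 1)) with its 95% interval in black, above the values of the 6 fits without 1 library (grey ticks, and a red diamond for the fit without BrafYAP replicate 6). The intervals of Spry4 and Spred2 lie above 0 and their ticks stay close together, and the diamond moves Spred1 to 0.69, Il17rd to 1.53 and Spred3 to 0.75.

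Levels of different genes can be set side by side only per length, so TPM were recomputed with the exonic length. On that scale Spry1 led in YAP cells at 13.2 ± 7.79 TPM (SD, n = 3), and its lowest YAP library, 6.83, was above every other member in all YAP libraries. Il17rd (3.92 ± 0.87), Spred1 (3.56 ± 0.80) and Spred2 (3.12 ± 0.50) followed. Spry2 (2.02 ± 1.15), Nf1 (1.79 ± 0.25) and Spry4 (1.28 ± 0.57) came next, and Spred3 was last at 0.793 ± 0.252. From Il17rd down, each gene overlapped its neighbour in this order when the SD was counted on both sides. In BrafYAP cells the order was Spry1 (15.8 ± 8.28), Spred2 (12.9 ± 2.13), Spred1 (12.5 ± 11.4), Il17rd (8.75 ± 5.00), Spry4 (7.88 ± 2.66), Spry2 (4.52 ± 0.55), Nf1 (1.47 ± 0.23) and Spred3 (0.986 ± 0.635). There the neighbours from Spry1 to Spry4 overlapped in their SDs, as did Nf1 and Spred3, whereas Spry2 stood clear of both its neighbours. Spry4 and Spred2 each stood 2 places higher in this order than in YAP cells.

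The make-up of the Sprouty family differed between genotypes more clearly than its total. Summed over Spry1, Spry2 and Spry4, the level was 10.6, 24.6 and 14.4 TPM by exonic length in YAP and 33.6, 29.9 and 21.2 in BrafYAP, so the totals overlapped. Spry4 made up 7.07, 7.66 and 8.39% of that sum in YAP and 22.7, 17.9 and 50.3% in BrafYAP, without overlap. In BrafYAP replicate 6, Spry4 was the leading Sprouty gene, where Spry1 led in the other 5 libraries with 64.3 to 89.2%. The Spred total did not overlap, at 6.67, 6.83 and 8.90 TPM in YAP and 20.3, 21.4 and 37.6 in BrafYAP. Spred2 was the larger part in BrafYAP replicates 1 and 2, with 57.3 and 71.7%, and Spred1 in BrafYAP replicate 6, with 68.1%, whereas in YAP cells both took 38.1 to 52.5% of the total. These sums are given as a description, with no test.

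**Figure D3:**
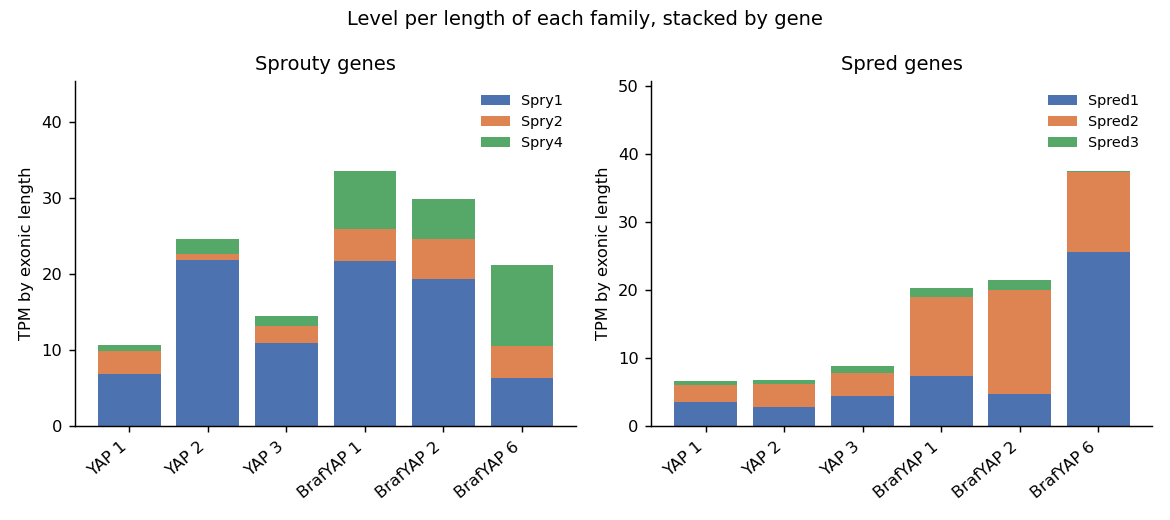
Stacked levels in TPM by exonic length (y axes, from 0) of the Sprouty genes (left) and the Spred genes (right) in each library. The green part for Spry4 is wider in each BrafYAP bar than in each YAP bar, and the Spred bars of BrafYAP, 20.3 to 37.6 TPM, all exceed those of YAP, 6.67 to 8.90 TPM.

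The 8 genes did not vary as 1 unit. Across the 6 libraries, Spry4 and Spred2 were each other's closest match (Pearson's r = 0.933 on log2(scaled reads + 1)). Spry1 and Il17rd were also each other's closest (r = 0.809), and Spred3 was closest to Il17rd (r = 0.744), 3 genes that share a low value in BrafYAP replicate 6. Spred1 was closest to Spry4 (r = 0.759) and least like Spred3 (r = -0.65), since replicate 6 was the highest library for Spred1 and the lowest for Spred3. Spry2 was closest to Spred2 (r = 0.678) and Nf1 to Spred3 (r = 0.346). BrafYAP replicate 6 held the highest value of the 6 libraries for 2 of the 8 genes, against 23.8% of all genes tested. It held the lowest for 4 of the 8, against 31%. Among all genes tested, those most like Spry4 were Vsig2 (r = 0.992), Clic6 (r = 0.991) and Gm14121 (r = 0.990), and 248 genes had r above 0.95. All 3 were low genes. Vsig2 had at most 2.45 and Clic6 at most 3.67 scaled reads in any YAP library, and Gm14121 had 12.0 to 39.8 over all libraries. The 6 points behind each r are 2 genotypes of 3 libraries each. Any pair of genes that differ between genotypes therefore shares that difference, and the r values are a description.

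The other genes of the pathway were then examined in lists. These lists were chosen with earlier results of these data known, so their counts are a description. In the ERK output list, transcripts that ERK is known to induce, 16 of 18 tested genes had a higher fitted level in BrafYAP, with a median log2 fold change of 1.53. None passed the threshold. At an unadjusted p-value under 0.05, 10 of 18 were higher, against 9.68% of all genes, and for 10 of 18 the groups did not overlap with BrafYAP above YAP, against 11.7%. The widest of these were Dusp4, an ERK phosphatase gene (4.95, SE 0.67, limma adjusted p = 0.0567), Hmga2, a chromatin factor gene (4.60, SE 0.41, limma adjusted p = 0.0517), and Etv5, an ETS factor gene (2.77, SE 0.54, limma adjusted p = 0.0880). Spry4 (2.59) and Spred2 (1.99) lay above the median of that list, and the other 6 of the 8 inhibitor genes below it.

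The cascade on which the inhibitors act showed no common direction. Of 21 tested genes of the RAS-ERK core and of Sprouty or Spred partners, 9 were higher and 12 lower, with a median of -0.13, close to that of all genes. There 4 of 21 had an unadjusted p-value under 0.05, all higher, against 20.2% of all genes in either direction. The groups did not overlap for 4 higher and 4 lower genes, against 11.7% and 17.1% of all genes. Among those the rule named were Map2k2, the gene for MEK2 (2.14, SE 0.50, limma adjusted p = 0.104), and Hras (0.83, SE 0.33, limma adjusted p = 0.226). The Sprouty gene Spry3 was not analysed here.

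Of the other RAS GTPase-activating proteins, which share the catalytic function of Nf1, 7 of 8 tested genes were higher, with a median of 0.89. Rasa2 (1.73, SE 0.46, limma adjusted p = 0.121) was the only one with an unadjusted p-value under 0.05 and the only one without overlap, 1 of 8 against 20.2% and 28.7% of all genes. Among receptors and receptor feedback genes, 8 of 13 were higher and 5 lower, with a median of 0.53. There 3 of 13 had an unadjusted p-value under 0.05, near the 20.2% of all genes, and the groups did not overlap for 4 higher and 3 lower genes, against 11.7% and 17.1%. Fgfr3 (2.83, SE 0.78, limma adjusted p = 0.128) and Errfi1, an inhibitor of EGF receptors (2.11, SE 0.30, limma adjusted p = 0.0589), were higher in all BrafYAP libraries. Fgfr2 (-1.67, SE 0.29, limma adjusted p = 0.0817) was lower in all of them. No gene of these lists passed the threshold.

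**Figure D4:**
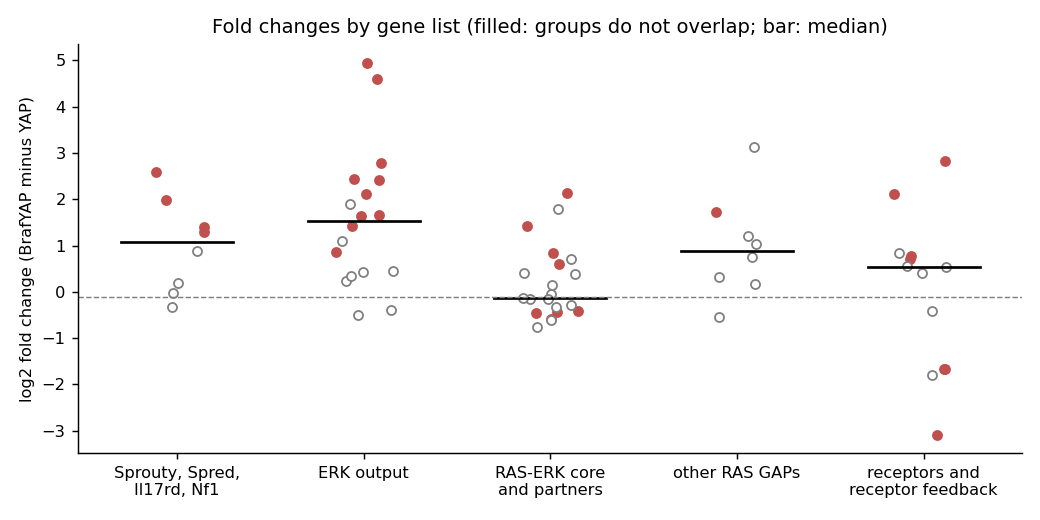
Log2 fold change (y axis, BrafYAP minus YAP) of each tested gene, grouped by list, with filled red points for genes whose groups do not overlap, open points for the others, a black bar at the median of the list and a dashed line at the median of all genes tested (-0.12). The median bars are at 1.09 for the 8 inhibitor genes, 1.53 for ERK output, -0.13 for the RAS-ERK core and partners, 0.89 for other RAS GTPase-activating proteins and 0.53 for receptors and receptor feedback.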

How the data were processed

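RNA of sorted mouse thyroid tumor cells was measured in 6 libraries, 3 per genotype, grouped by title. The labels give no batch. The study's methods give 1 tumor per replicate and its text a later start of dox, and the labels were followed. Alignment by the authors used STAR 2.6.1d and mm10, followed by Partek's E/M quantification against Ensembl 95, and they deposited TPM with 0.0001 added. Each column sums to 181218, less than TPM do by definition. Low deposited TPM (under 200 reads) times genomic span (GENCODE M21) were within 0.05 of whole multiples of 1 step per library for 71.7 to 76.1% of values, against 22.3 to 25.1% with exonic length. The span was therefore undone, giving estimated reads (each library's own step) and scaled reads (1 common step) for 34640 genes at one locus. Estimated reads of Spry2 and Spred3 lay within 0.016 of whole numbers, and those of Spry4 up to 0.445 away.

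Since TPM are not counts, limma 3.58.1 (R 4.3.3, lmFit, eBayes with trend, two-sided, no covariate) was fitted to log2(scaled reads + 1). Genes needed a mean of 10, which left 16832, p-values were adjusted by Benjamini and Hochberg over all of them, and the threshold was 0.05. The same code was tested on simulated data. This scale understates changes of low genes. Members and lists were chosen with earlier results of these data known. Per pathway list, text names up to 3 genes with the largest change among those with an unadjusted p under 0.05 and no overlap, and it names the closest matches by Pearson's r. Evi2a, Evi2b, Ggn and Lyz2 were named after their values were seen. Some items are not reported here. Alternatives were another pseudocount, filter, scale, normalization or model, a replicate block, protein-coding genes only, and each library left out.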

Additional observations from a re-analysis of the deposited data

How the results depend on the processing

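The number of genes past the threshold, 0 in the reported limma fit, was the least stable value. It was 45 with a pseudocount of 10, 63 with the exonic length, 62 with quantile normalization, 20 without a trend in eBayes and 4653 (27.6% of genes) with array weights, and ranged from 0 to 142 over the fits without 1 library (3 without YAP replicate 2, 142 without BrafYAP replicate 6). Of the 8 genes, 0 passed in every setting but array weights, where 4 did: Spry2 (1.11), Spry4 (2.46), Spred2 (1.93) and Il17rd (1.53). These weights were 4.81 for YAP replicate 3 and 0.221 for BrafYAP replicate 6. At an unadjusted p-value under 0.05 there were 4 of the 8 with median-ratio size factors, against 20.2% of all genes. Array weights gave 5 of the 8, against 41.1% of all genes, and the reported fit 2, against 20.2%. The median of the 8 was 0.24 on the deposited values, and 0.87 to 1.12 over the fits without 1 library. Median-ratio size factors moved the median of all genes from -0.12 to 0.01.

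Spred3 changed sign with a pseudocount of 10 (0.027), the deposited values (0.036), quantile normalization (0.0025), median-ratio size factors (0.088), array weights (0.31), the replicate block (0.95), without YAP replicate 3 (0.18) and without BrafYAP replicate 6 (0.75). Without 1 library it ranged from -0.42 to 0.75. It was under the minimum with the exonic length and not tested there. Spry1 changed sign without YAP replicate 1 (-0.20), BrafYAP replicate 1 (-0.14) or BrafYAP replicate 2 (-0.04), with a range of -0.20 to 0.74. The other 6 genes kept their sign in all settings run. The cause was not tested. Depth limits Spry2 and Spred3 most, whose libraries held as few as 16 and 20 reads.

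Replicate numbers 1 and 2 occur in both genotypes. Libraries with the same number did not deviate together (r = -0.03 and 0.05). The deviations were taken from group means that include BrafYAP replicate 6, which stood apart. These values therefore cannot show whether libraries with the same number shared any processing. The fit with the replicate block called 0 genes and gave 2.31 for Spry4, 2.09 for Spred2, 1.48 for Spry2 and -0.24 for Nf1. It moved Spred1 from 1.40 to 0.81, Il17rd from 0.89 to 1.45 and Spry1 from 0.18 to 0.65.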
